A study of Homo sapiens with 8 samples.

Results

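The p63 binding regions of CAL27, an established human squamous cell carcinoma line derived from the tongue, are described here across the genome. They are all 13829 rows of the region list for this line, out of 19715 rows in both lists of the series. Of the 8 samples, 4 are of CAL27, all of wild-type genotype by their labels and without treatment. They are 2 p63 immunoprecipitations, to which the 1 region list belongs, and 2 samples titled none, and the sources used here do not give their part in the list. The other line, SCC13, has the same 2 kinds of sample. Because CAL27 is 1 line and both replicates stand behind 1 list, no value below has a spread between replicates, and no difference was tested.

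The transcription factor p63 is a member of the p53 family that binds DNA as a tetramer. It marks the basal layer of stratified epithelia and is needed for their formation, and squamous carcinomas of the mouth commonly keep expressing it. In keratinocytes it is known to act largely at distal enhancers, including those of keratins, adhesion molecules and other transcription factors. The title of the series names FOXK1, a forkhead factor, as its cofactor in squamous carcinoma.

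Each region was given as a chromosome, a start and an end in hg19, with no height, score or count. Gene models of hg19 were not used here, so a gene is placed only by the cytogenetic band that textbooks give for it. A region in the band of a gene is therefore not shown to lie in or beside that gene. The identity of the cells could not be checked from marker expression, since the list holds positions alone. The depth of the libraries is unknown, and a stretch without a region is not shown to be unbound.

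The regions were short, and few were broad. They covered 12.0 Mb, or 0.395% of the length of chromosomes 1 to 22 and X. The median width was 791 bp, with quartiles at 613 and 1038 bp. Widths of 1500 bp or more were found in 820 regions, or 5.93% of the list, and only 6 regions reached 3000 bp. The narrowest region, of 126 bp, lay on chromosome 2 at 9319301 to 9319426 in band 2p25.1, the band of GRHL1. Of all regions, 4448, or 32.2%, were listed with the same start and end among the 5886 regions of SCC13. Their borders are shared by both lists, so their widths are not particular to CAL27.

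Each of the 10 widest regions had another midpoint within 56.8 kb. The leading 5 measured 3456 bp in 3q25.33, 3420 bp in 1q21.3, 3335 bp in 1p35.2, 3234 bp in 17q23.2 and 3223 bp in 16q24.2. The next were 3113 bp on chromosome 9 at 138999280 to 139002392, in 9q34.3, the band of NOTCH1, and 2969 bp on chromosome 15 at 70486377 to 70489345, in 15q23. In 5p13.2, the region from 36450706 to 36453469 on chromosome 5 was 2764 bp wide and belonged to a group of 3, with its nearest neighbour 9.51 kb away. The last of the 10 widest measured 2735 bp on chromosome 1 at 161449978 to 161452712, in 1q23.3, and 2734 bp on chromosome 7 at 1597757 to 1600490, in 7p22.3. Apart from the one in 5p13.2, the midpoints of the regions ranked 6 to 10 by width were 15.0 kb or more from the nearest other midpoint. For the leading 5, in the order above, the nearest midpoint was 19.2, 7.5, 2.59, 55.3 and 29.8 kb away.

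Distances between neighbouring regions were widely spread. The 13806 pairs of neighbours on the same chromosome had midpoints a median of 82.6 kb apart, with quartiles at 26.4 and 218.9 kb. Their mean was 211.4 kb, and even spacing over the 23 chromosomes would be 219.6 kb. Randomly scattered positions would also have a median below the mean. Of the pairs, 6.16% lay within 5 kb, 24.1% within 25 kb and 55.0% within 100 kb. The 1937 closest pairs, or 14%, had midpoints at most 12498 bp apart, and are called close neighbours here. At the other end, 438 pairs were more than 1 Mb apart and 17 more than 5 Mb. No 2 rows overlapped, and the closest pair was separated by 66 bp.

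**Figure D1:**
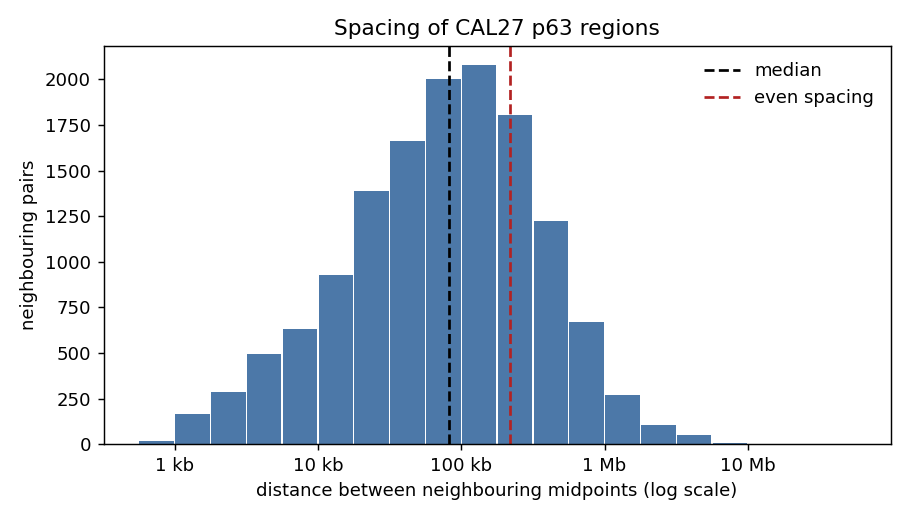
Distances between the midpoints of neighbouring CAL27 p63 regions, on a log scale in bins of equal log width (x axis), against the number of neighbouring pairs (y axis). The dashed black line is the median of 82.6 kb, and the dashed red line is the 219.6 kb of an even layout. The distances spread from under 1 kb to over 10 Mb, with the median to the left of even spacing.

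Regions with close neighbours were somewhat wider than regions that stood alone. The 3318 regions with no other midpoint within 100 kb had a median width of 735 bp, with quartiles at 579 and 963 bp. The 3487 regions with a close neighbour had a median of 837 bp, with quartiles at 643 and 1086 bp. The 2 ranges overlap over most of their extent.

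Most of the longest stretches between 2 regions contained a centromeric, variable or stalk band. The longest of these ran for 26.7 Mb on chromosome 9, from 9p13.1 to 9q13, and the next for 22.7 Mb on chromosome 1, from 1p11.2 to 1q21.1. The third between 2 regions was different. It ran for 14.8 Mb within the long arm of X, from the region ending at 82063735 in Xq21.1 to the one starting at 96871868 in Xq21.33, and contained no such band. The fourth spanned 11.9 Mb on chromosome 16 and the fifth 8.73 Mb on chromosome 11, both across a centromere. Of the 17 such stretches of over 5 Mb, 11 contained a centromeric, variable or stalk band and 6 did not. Stretches that reach a chromosome end are not among them. Of those, 5 were over 5 Mb, from the starts of chromosomes 15, 14, 13, 22 and 21, with 22.97, 21.04, 20.2, 17.7 and 15.7 Mb.

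Chromosomes 17, 20, 19 and 22 carried the most regions per Mb, and X, 4 and 18 the fewest. Over the whole list there were 4.55 regions per Mb. Chromosome densities use full hg19 lengths, with centromeric, variable and stalk bands included. The empty first 17.7 Mb of chromosome 22 are therefore counted in its length. Chromosome 17, which carries the type I keratins, held 583 regions, or 7.18 per Mb (95% exact Poisson interval 6.61 to 7.79). Chromosome 20 had 6.63 per Mb (6.01 to 7.30), chromosome 19 had 6.41 (5.78 to 7.09) and chromosome 22 had 6.08 (5.43 to 6.80). The intervals of these 4 chromosomes overlap, so their order is not resolved by counting error. Chromosome 1 came next with 5.66 (5.37 to 5.96), an interval that overlaps those of 19 and 22. All these intervals cover counting error only and treat regions as independent, which makes them too narrow where regions crowd.

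X held 278 regions, or 1.79 per Mb (1.59 to 2.01), an interval below that of each autosome. Chromosome 4 followed with 2.58 per Mb (2.36 to 2.82) and chromosome 18, which carries the desmoglein and desmocollin genes, with 2.93 (2.57 to 3.34). The intervals of chromosomes 4 and 18 overlap. That of 18 also overlaps the interval of chromosome 13, which had 3.23 (2.91 to 3.58). The regions of these sparse chromosomes were also narrow, with median widths of 619 bp on X, 681 bp on chromosome 4 and 713 bp on chromosome 18, against 791 bp in the whole list. Among the 4 densest chromosomes the median width was 859 bp on 17, 820 bp on 20, 789 bp on 19 and 830 bp on 22. 

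**Figure D2:**
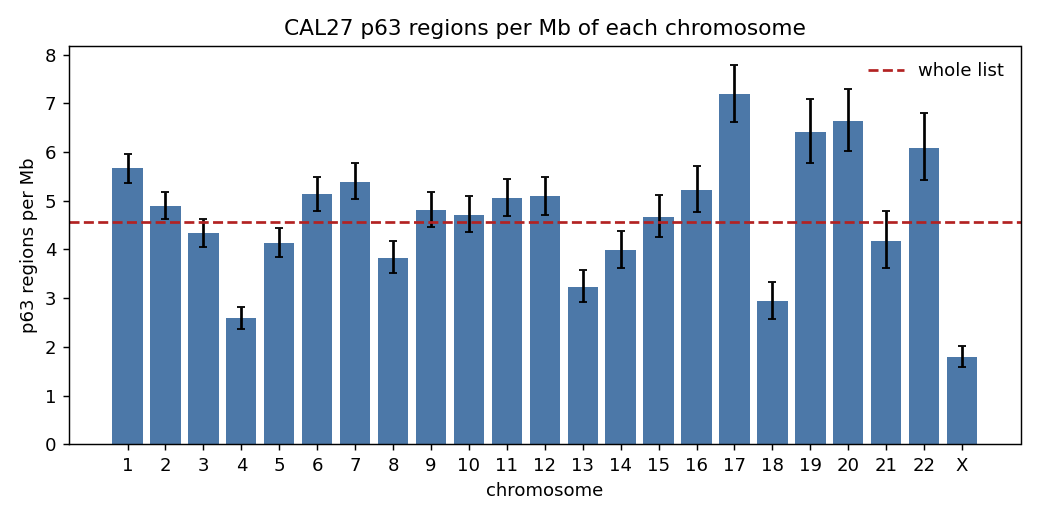
Number of CAL27 p63 regions per Mb (y axis) on each chromosome (x axis). Bars are the density, error bars the 95% exact Poisson interval, and the dashed line the 4.55 per Mb of the whole list. Chromosome 17 is highest at 7.18 and X lowest at 1.79.

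Among chromosome arms, without their centromeric, variable and stalk bands, 22q was the densest. It held 9.19 regions per Mb (95% exact Poisson interval 8.19 to 10.3), followed by 19p with 9.05 (7.78 to 10.5), 20q with 8.09 (7.16 to 9.11) and 17q with 7.96 (7.24 to 8.74). These intervals overlap one another. The sparsest arms were Xq with 1.45 (1.22 to 1.72) and 8p with 2.16 (1.74 to 2.64), whose intervals do not overlap. That of 8p does overlap those of arms ranked after it, such as Xp with 2.44 (2.06 to 2.88).

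The density of regions fell from the pale bands of Giemsa staining, which are rich in genes, to the darkest ones. Pale, or G-negative, bands had 6.14 regions per Mb (95% exact Poisson interval 6.003 to 6.27) and the lightest grey bands 6.33 (6.004 to 6.68), which overlap. The next 2 shades had 4.50 (4.29 to 4.71) and 3.63 (3.45 to 3.82), and the darkest bands 2.39 (2.26 to 2.53). Centromeric bands had 0.514 (0.385 to 0.672). Over the 5 shades, the share of regions in groups had the same order as density. The darker shades differed little in it, with 4.14, 3.94 and 3.86%. Of the regions in G-negative bands, 8.78% belonged to a run of 3 or more close neighbours, called a group here, against 3.86% in the darkest bands. Median width fell only from 807 to 748 bp between these classes.

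Of 851 bands on these chromosomes, 814 were at least 1 Mb long, and 91 of these, or 11.2%, had at least 2 times the density of the whole list. They are called dense here. Dense bands held 3370 regions, or 24.4% of the list, on 9.53% of the length, and lay on 19 of the 23 chromosomes. By stain, 69 were G-negative, 17 were of the lightest grey and 5 were darker.

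The densest band was 11q13.1, where textbooks place OVOL1, a zinc finger repressor that acts as epidermal cells differentiate. It held 53 regions, or 21.2 per Mb (95% exact Poisson interval 15.9 to 27.7). Band 7p22.3 held 58 regions, or 20.7 per Mb (15.7 to 26.8). Band 1p13.1 had 31 regions and 18.2 per Mb (12.4 to 25.9). Band 17q21.2, with the type I keratins, had 45 regions and 18 per Mb (13.1 to 24.1). Band 20q13.31, the band of TFAP2C, an AP-2 factor of the surface ectoderm, had 26 regions and 17.3 per Mb (11.3 to 25.4). All 5 intervals overlap one another and those of bands ranked after them, such as 16q24.3 with 9.78 to 22.3, so neither their order nor their place above the next bands is resolved.

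The remaining 5 of the 10 densest bands were 9q34.13 with 16.8 regions per Mb, 9q34.2 with 16.7, 7p13 with 16.2, 3q27.1 with 16.1 and 16q24.3 with 15.1. A pair of adjoining bands on 9q was thus among them. The 10 bands together held 2.59% of the regions on 0.657% of the length. Of the 10, 8 stayed among the 10 densest when runs of close neighbours were counted once.

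Fixed windows of 1 Mb placed the busiest stretches more finely. The median window held 3 regions, 604 of 3053 windows held none, and 19 held 20 or more. The fullest, with 27 regions between 46007989 and 46980945 on chromosome 22, lay in 22q13.31. It was followed by 25 regions on chromosome 21 between 43032992 and 43876093, in 21q22.3. Windows with 24 regions lay on chromosome 11 between 65028771 and 65911072, in 11q13.1 and 11q13.2, and on chromosome 2 between 19999984 and 20928597, in 2p24.1. The window of chromosome 17 from 39112585 to 39957361, inside 17q21.2, held 23. So did windows in 7p22.3, in 9q34.13 and across 9q32 and 9q33.1.

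At the other extreme, 74 bands held no region, of which 49 were centromeric, variable or stalk bands. Only 1 of the other 25 was 5 Mb long or more. This was Xq21.31, a darkest-class band of 5.6 Mb, in the same stretch of X described above. A density of up to 0.659 per Mb is the upper end of its exact 95% interval. Among the other empty bands were 11p14.3 with 4.4 Mb, 9p11.2 with 3.7 Mb and 8q24.23 with 3.5 Mb. None of the 25 is the band of a keratinocyte gene on the lists below.

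Regions also gathered in short groups. In all, 309 groups of 3 or more close neighbours held 1005 regions, or 7.27% of the list, in 209 bands and on all 23 chromosomes. Most, 248, held exactly 3 regions, 48 held 4 and 13 held 5 or more. Their span ran from 3.15 to 39.2 kb with a median of 14 kb. A further 1241 runs were pairs, and 10342 regions, or 74.8%, had no close neighbour. Regions in groups of 3 or more had a median width of 866 bp, with quartiles at 676 and 1141 bp, against 777 bp, with quartiles at 604 and 1020 bp, for regions without a close neighbour.

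The group with the most regions lay in 1p36.32, the band of TP73, which encodes the p53 family member p73. Its 7 regions ran over 36.9 kb on chromosome 1 from 3597452 to 3634369. They started at 3597452, 3601775, 3606767, 3614540, 3618931, 3628320 and 3633391, and were 776, 558, 1470, 1709, 2084, 714 and 979 bp wide. The broad ones were thus the 3 in the middle, and the regions covered 22.5% of the span. Another group of 5 regions stood in the same band, at 3376484 to 3408939, so that 12 of the 26 regions of 1p36.32 were in these 2 groups.

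The second group, with 6 regions over 26.2 kb on chromosome 6 from 56507331 to 56533555, lay in 6p12.1. This is the band of DST, which encodes dystonin, the plakin that ties keratin filaments to hemidesmosomes. Its regions were more even, from 745 to 1433 bp wide, with the widest at the lower coordinate end. The third, also of 6 regions, stretched over 39.2 kb of chromosome 19 from 38456538 to 38495695 in 19q13.13, and was the longest of all 309.

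A compact group of 5 regions lay in 6p21.2, the band of CDKN1A, the cell cycle inhibitor p21 and a classical target of the p53 family. It took up 16.4 kb on chromosome 6 from 36634538 to 36650984. One region at 36634538 to 36635482 stood apart, and the other 4 lay between 36643904 and 36650984. A gap of 361 bp separated the closest pair among them, the regions ending at 36644513 and starting at 36644875. The remaining groups among the first 10 also held 5 regions each. They lay in 8q11.21 at 49608580 to 49626684, 11q14.3 at 92567301 to 92586737, 3p21.2 at 52079479 to 52101576, 14q32.2 at 99352980 to 99376516, 7p22.3 at 1491414 to 1515182 and 6p21.33 at 30843760 to 30870448.

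**Figure D3:**
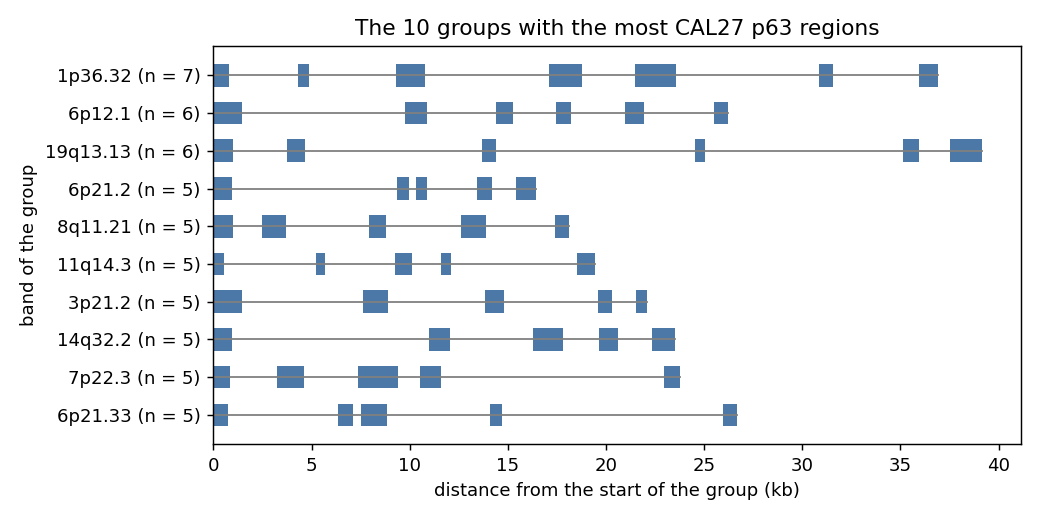
The 10 groups of CAL27 p63 regions with the most members, each named by its band (y axis). Grey lines are the span of a group and blue boxes its regions, drawn to scale as distance from the group's start in kb (x axis). The group in 1p36.32 holds 7 regions over 36.9 kb, and the one in 6p21.2 holds 5 over 16.4 kb.

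Groups recurred in some bands. Band 1q32.1, the band of the desmosomal plakophilin PKP1, held 9 of them by the position of their first region, the most of any band. It was followed by 21q22.3 with 7 and 17q21.2 with 6. These counts are not per Mb, and the bands are 8.5, 5.53 and 2.5 Mb long in that order. In 17q21.2 the groups held 20 of the 45 regions.

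The keratinocyte loci were 69 genes in 12 lists, which lay in 42 bands. All 42 bands held regions, so no gene of the lists was in a band without one. Most bands of any kind held regions too. Only 74 of all 851 held none, and 49 of those were centromeric, variable or stalk bands. Of the 42 bands, 17, or 40.5%, were dense, against 11.2% of all bands of at least 1 Mb. Their median density was 7.67 regions per Mb, against 4.0 over those 814 bands, and 36 of the 42 were above the 4.55 per Mb of the whole list. Pale bands are richer in genes. Of the 42, 30 were G-negative, and 14 of these 30, or 46.7%, were dense, against 17.9% of the 386 G-negative bands of at least 1 Mb. The part of gene content in these shares was not tested.

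For comparison, 5 genes that keratinocytes do not typically use, those for albumin, MYOD1, beta-globin, NEUROD1 and insulin, lay in 5 bands. All 5 held regions too, with 3.97, 5.27, 5.82, 4.17 and 12.1 per Mb in that order. Only 11p15.5, the band of INS, was dense, and it is also the band of the desmosomal gene PKP3.

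**Figure D4:**
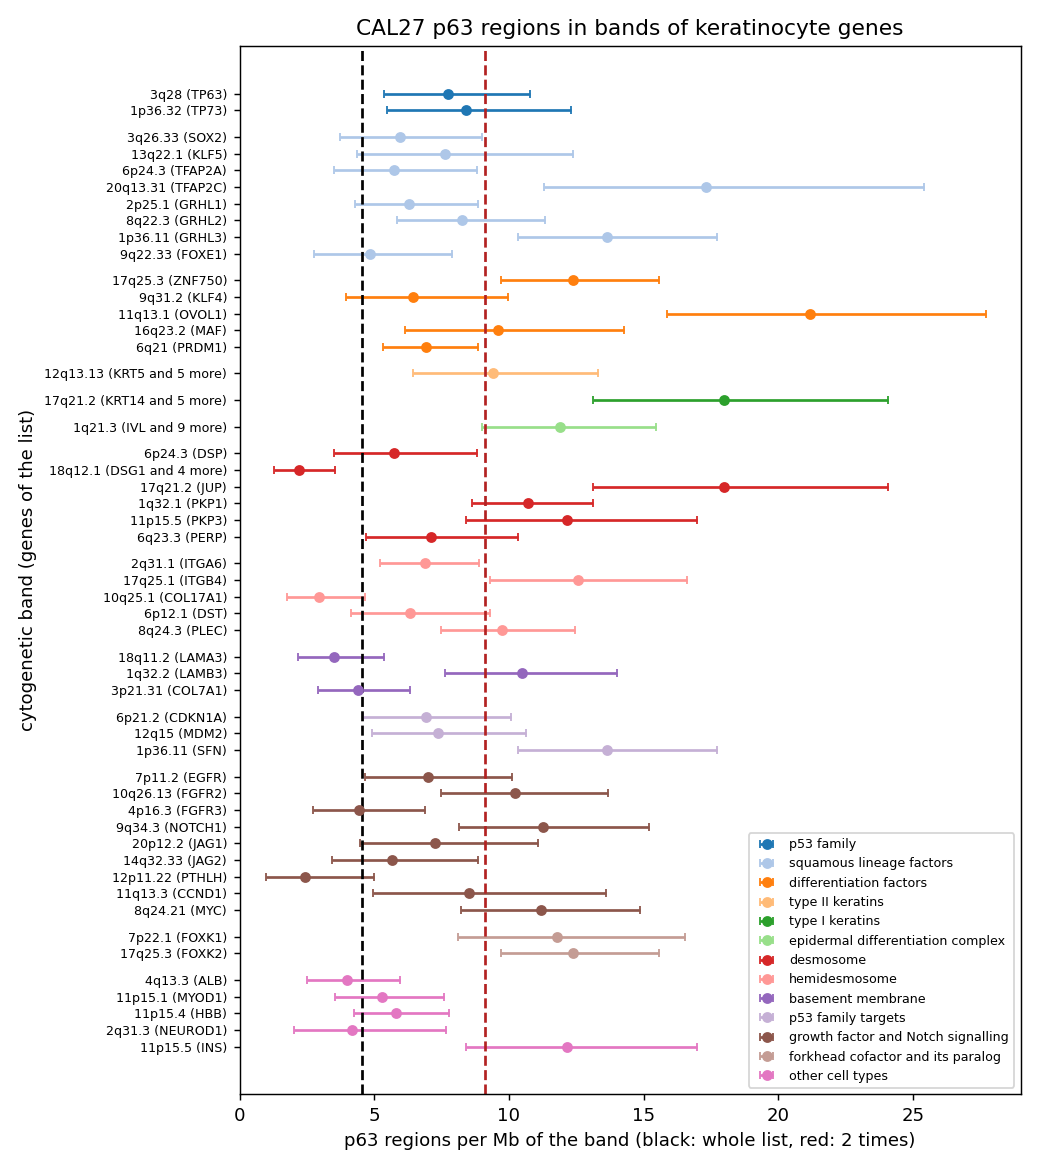
Density of CAL27 p63 regions per Mb (x axis) in the bands of the listed genes (y axis, coloured by list). Points are the density and error bars the 95% exact Poisson interval; the dashed black line is the whole list at 4.55 per Mb and the dashed red line 2 times that. Band 11q13.1 is highest at 21.2 and 18q12.1 lowest at 2.21.

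The bands of TP63 and TP73 were moderately filled. Band 3q28, where TP63 lies, held 34 regions, or 7.73 per Mb (95% exact Poisson interval 5.35 to 10.8). It was the fifth densest of the bands of its shade, the second darkest. Band 1p36.32 of TP73 had 8.39 (5.48 to 12.3). Neither was dense. Inside 3q28, 3 of the 34 regions were in a group, against 7.27% of the whole list. This single group lay at 189542451 to 189556456 and was made of regions of 1043, 1355 and 493 bp. Neighbouring midpoints in the band were a median of 62.5 kb apart, against 82.6 kb in the whole list. The fullest 200 kb held 7 regions, between 190053647 and 190252691. After the last of these came the longest empty stretch of the band, of 0.566 Mb, up to 190818248.

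The 8 squamous lineage factors on the list all lay in bands above the density of the whole list, and 2 of the 8 bands were dense. Besides 20q13.31 of TFAP2C this was 1p36.11 of GRHL3, a grainyhead factor of barrier formation, with 13.7 regions per Mb. Bands 8q22.3 of GRHL2 and 13q22.1 of KLF5, which regulate epithelial identity and proliferation, had 8.26 and 7.62. Lower were 2p25.1 of GRHL1 with 6.27, 3q26.33 of SOX2 with 5.95, 6p24.3 of TFAP2A with 5.71 and 9q22.33 of FOXE1 with 4.85. The intervals of these 4 bands and of 13q22.1 include the 4.55 of the whole list. In 6p24.3 a group of 5 regions lay at 10400368 to 10432139 although the band as a whole was near that average.

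Of the 5 differentiation factors on the list, 3 lay in dense bands. Dense bands were 11q13.1 of OVOL1, described above, 17q25.3 of ZNF750, a zinc finger activator of late differentiation, with 73 regions and 12.4 per Mb, and 16q23.2 of MAF with 9.60. The call of 16q23.2 was lost with close neighbours counted once, at 7.60 per Mb. Bands 6q21 of PRDM1 and 9q31.2 of KLF4, a factor of barrier formation, had 6.92 and 6.45.

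Keratins fill the cytoskeleton of keratinocytes as pairs of 1 type I and 1 type II chain. The bands that hold the 2 clusters had different densities, and the clusters themselves were not measured. Band 17q21.2, with KRT14, KRT15, KRT16, KRT17, KRT10 and KRT13, held 18 regions per Mb (95% exact Poisson interval 13.1 to 24.1). Band 12q13.13, with KRT5, KRT6A, KRT6B, KRT1, KRT4 and KRT8, held 32 regions, or 9.41 per Mb (6.44 to 13.3), just above the dense level. With close neighbours counted once it had 7.35 per Mb, under the dense level of 7.83 for that count. The intervals of the 2 keratin bands overlap only at their ends, and the difference was not tested.

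Within the type I band, 20 of the 45 regions fell in 6 groups. Those of 4 regions lay on chromosome 17 at 38689266 to 38704456 and 39495256 to 39511371. Those of 3 lay at 38646461 to 38650501, 39777302 to 39785509, 39807494 to 39812552 and 39945456 to 39957361. The fullest 200 kb, with 10 regions, ran from 38646461 to 38739373. In the type II band 3 groups of 3 lay on chromosome 12 at 52538502 to 52549777, 52971839 to 52977085 and 53255611 to 53270728. That band also had an empty stretch of 0.814 Mb, from 51521590 to 52335251, near its lower border, against a longest one of 0.235 Mb in 17q21.2. The widest region of 12q13.13 measured 2183 bp and started at 52914778.

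The epidermal differentiation complex is a gene cluster for cornified envelope, filaggrin-type and S100 proteins. Its band 1q21.3, with IVL, LORICRIN, FLG, SPRR1A, SPRR1B, SPRR2A, S100A2, S100A7, S100A8 and S100A9, held 56 regions, or 11.9 per Mb (95% exact Poisson interval 9.0 to 15.5), and was dense. Of the 56, 3 were in a group of 3 or more, at 152155338 to 152170209 on chromosome 1. In 17q21.2 this held for 20 of 45, and in the whole list for 7.27%. Neighbouring midpoints in 1q21.3 were a median of 35.6 kb apart, against 82.6 kb in the whole list. The fullest 200 kb of the band held 10 regions, from 152690490 to 152878765. The band's widest region, of 3420 bp, was the second widest of the list. An empty stretch of 0.420 Mb followed the region that ended at 153748929.

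**Figure D5:**
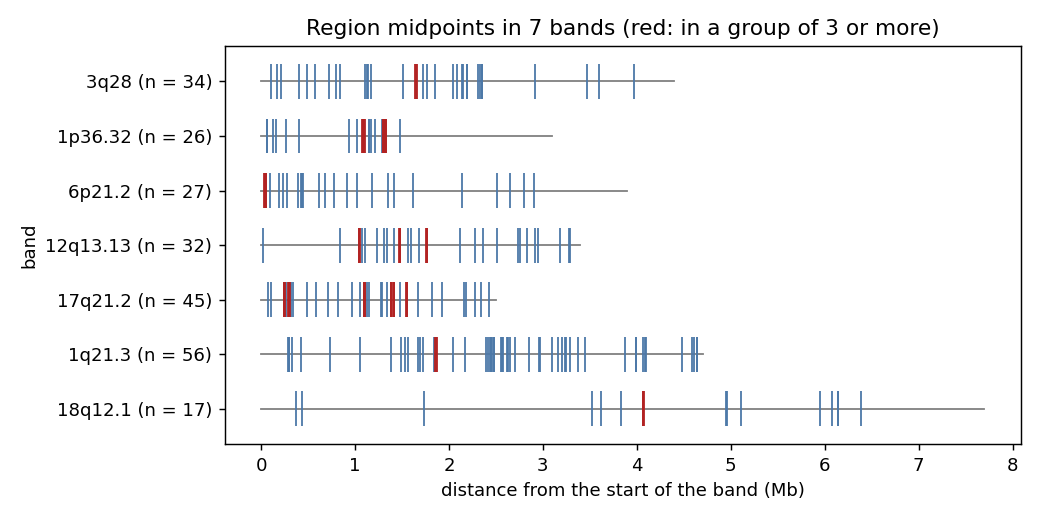
Midpoints of CAL27 p63 regions in 7 bands (y axis) as distance from the start of the band in Mb (x axis). Each vertical line is 1 region, red where it belongs to a group of 3 or more, and the grey line is the length of the band. Band 17q21.2 has 20 of its 45 regions in groups, 1q21.3 has 3 of 56, and 18q12.1 has 17 regions on 7.7 Mb.

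Desmosomes hold keratinocytes together, and their 10 genes lay in 6 bands with densities from 2.21 to 18 regions per Mb. Dense bands were 17q21.2 of JUP, the plakoglobin gene, which it shares with the type I keratins, 11p15.5 of PKP3 with 12.1 regions per Mb, and 1q32.1 of PKP1 with 91 regions and 10.7 per Mb. Band 1q32.1 was no longer dense with close neighbours counted once, at 7.41 per Mb. Band 6q23.3 of PERP, a p63-regulated desmosomal membrane protein, had 7.11, and 6p24.3 of DSP, the desmoplakin gene, had 5.71. The desmosomal cadherins DSG1, DSG2, DSG3, DSC2 and DSC3 all lie in 18q12.1, which had 17 regions on 7.7 Mb, or 2.21 per Mb (95% exact Poisson interval 1.29 to 3.54). That interval lies below the whole list. The band is of the darkest shade, where the density over all bands was 2.39. Its only group, of 3 regions of 790, 895 and 606 bp, lay on chromosome 18 at 29065814 to 29078635, and an empty stretch of 1.79 Mb ended at 28525642.

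Hemidesmosomes anchor basal cells to the basement membrane, and 2 of their 5 bands were dense. These were 17q25.1 of ITGB4, the integrin beta 4 chain, with 12.6 regions per Mb and 8q24.3 of PLEC, the plectin gene, with 9.75. With close neighbours counted once, 8q24.3 had 7.43 and was not dense. Band 2q31.1 of ITGA6, its alpha 6 partner, had 6.87, and 6p12.1 of DST had 6.34, of which 6 of 26 regions made up the group above. Among the darkest-class bands 6p12.1 ranked second. Band 10q25.1 of COL17A1, the collagen of hemidesmosomes, had 2.95 (95% exact Poisson interval 1.75 to 4.66). The gene lies close to the border with 10q24.33, a band of 0.9 Mb with 13 regions, or 14.4 per Mb. The 18 regions of 10q25.1 left a stretch of 3.85 Mb empty, from 107713005 to 111560658, while a group of 3 stood at 105842739 to 105852916, near the lower border of the band.

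The basement membrane list held LAMB3 and LAMA3, which encode laminin chains, and COL7A1. Band 1q32.2 of LAMB3 had 10.5 regions per Mb (95% exact Poisson interval 7.63 to 14) and was dense, though not with close neighbours counted once, at 7.21, whereas 18q11.2 of LAMA3 had 3.50 (2.17 to 5.35) and no group of 3. In 1q32.2, the fullest stretch of 200 kb held 10 regions, from 209537884 to 209659239. Band 3p21.31 of COL7A1, the anchoring fibril collagen, had 4.38 (2.91 to 6.32).

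Of the 3 bands of p53 family targets 1 was dense, 1p36.11, shared by SFN, the 14-3-3 sigma gene, and GRHL3. A group of 4 regions lay there on chromosome 1 at 27181081 to 27192429. Band 12q15 of MDM2, the ubiquitin ligase that restrains p53, had 7.37 regions per Mb and no group. Band 6p21.2 of CDKN1A had 6.92, and its group of 5 made up part of a stretch of 8 regions from 36634538 to 36830543.

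Growth factor and Notch signalling genes lay in 9 bands, 3 of them dense. These were 9q34.3 of NOTCH1, a receptor that drives keratinocyte differentiation, with 11.3 regions per Mb, 8q24.21 of MYC with 11.2 and 10q26.13 of FGFR2 with 10.2. Band 8q24.21 was the third densest of its shade. Bands 11q13.3 of CCND1, 20p12.2 of JAG1 and 7p11.2 of EGFR had 8.50, 7.24 and 7.0. Band 11q13.3 became dense with close neighbours counted once, at 8.0 per Mb. In 20p12.2 the fullest 200 kb held 10 of 21 regions, from 10537994 to 10720764, right after an empty stretch of 1.10 Mb. In 7p11.2 it held 10 of 28, from 55014094 to 55201703. In 14q32.33, the band of the Notch ligand gene JAG2, 12 of 19 regions lay between 105433132 and 105634037. Bands 4p16.3 of FGFR3 and 12p11.22 of PTHLH, the parathyroid hormone-like hormone, had 4.44 (95% exact Poisson interval 2.71 to 6.86) and 2.41 (0.971 to 4.97). The 7 regions of 12p11.22 were the fewest of any band on the lists.

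Both forkhead bands were dense. Band 7p22.1 of FOXK1 held 33 regions, or 11.8 per Mb (95% exact Poisson interval 8.11 to 16.6), with no group of 3. Band 17q25.3 of its paralog FOXK2, which it shares with ZNF750, held 12.4 (9.71 to 15.6). The fullest 200 kb of 7p22.1 had 7 regions, from 5565180 to 5741179.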

How the data were processed

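The labels' protocols give crosslinking in 1% formaldehyde over 10 min and precipitation using 10 ug of anti-p63. Bowtie2, MACS2, SAMtools 1.8 and the hg19 build are listed, without roles, in the submitters' processing notes. The authors deposited 1 list per line with chromosome, start and end. The sources used here give neither the peak threshold nor how replicates entered the list. Starts are printed counted from 1.

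Regions were assigned to chromosomes and Giemsa bands by midpoint, using hg19 lengths (GenomeInfoDb 1.38.1) and bands (circlize 0.4.16). Intervals are exact Poisson at 95%. Close neighbours are midpoints within 12.5 kb, and groups are runs of them. No test was run, since 1 pooled list has no replicates. Python 3.11.15 was used with pandas 2.3.3, scipy 1.17.1, numpy 2.4.6 and, for figures, matplotlib 3.10.9, and the functions were tested on simulated data.

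Bands of genes were written from textbook knowledge, and band borders are approximate. All 74 symbols, 5 of them genes of other cell types, matched RefSeq's GRCh38.p14 gene table on the chromosome of their band; its coordinates are of another build and were not used. The members, lists and rules were chosen with earlier results of these data known. Named items are the 10 densest bands of at least 1 Mb, empty bands of at least 5 Mb, the 10 groups with the most regions (ties by shorter span), the 10 widest regions, the 5 longest gaps between regions and every listed gene, except 5 planned genes, which are not reported here and enter no count. Windows of 1 Mb, arms, stretches of 200 kb, widths by spacing and the other empty bands were added after values were seen. Planned motif searches and distances to genes were not analysed here.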

Additional observations from a re-analysis of the deposited data

How the results depend on the processing

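No paired analysis was possible because both replicates stand behind 1 list, which also left no replicate to omit. The list of 13829 became 11892 with runs of close neighbours counted once. Counted this way, dense bands fell from 91 to 81, and those among the 42 keratinocyte bands from 17 to 13, the latter a count added after seeing the data. Calls were lost in 12q13.13, 16q23.2, 1q32.1, 1q32.2 and 8q24.3 and gained in 11q13.3. Thresholds set the counts by construction. With 1.5 and 3 times the density of the list, dense bands numbered 211 and 19, of which 29 and 3 were keratinocyte bands. Groups of 3 or more numbered 85 at 5 kb and 697 at 25 kb, against 309, and 13 held 5 or more regions. Neighbouring pairs within 5 and 25 kb made up 6.16% and 24.1%, against the 14% that were close neighbours. Chromosome 17 moved from 7.18 to 5.94 per Mb with close regions counted once. In that count it stayed the densest chromosome, followed by chromosome 20 with 5.46. Assignment by start, other minimum band lengths, distances from end to start and leaving out X kept counts within 1.5 times and medians within 5 kb or 1 SD. Gene windows and motif searches were not run without an hg19 annotation or genome.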

Other observations

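Density was also higher near the chromosome ends, in classes of distance chosen after values had been seen. Within 2 Mb of an end there were 6.64 regions per Mb (95% exact Poisson interval 6.13 to 7.19), between 2 and 5 Mb 6.15 (5.75 to 6.58), and more than 40 Mb from an end 4.05 (3.94 to 4.16). Bands at the tips differed among themselves. Band 7p22.3, at the tip of 7p, had 4 groups of 3 or more regions and 14q32.33, the last band of 14q, had 2, whereas 3p26.3, the first band of 3p, held no region on 2.8 Mb.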
